A study of Mus musculus with 24 samples.

Results

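Organoids grown from irradiated mouse salivary glands were compared between glands taken 90 days and 14 days after irradiation, both at the second passage of the culture. The comparison held 6 of the 24 libraries in the series, 3 at day 90 and 3 at day 14, and these were chosen by the day, treatment and passage in the labels and by no measured value. All 24 came from C57BL/6 mice, and the 8 groups combined irradiation or sham irradiation of the gland, day 14 or 90 and passage 1 or 2, with 3 libraries each. The labels call the cells salivary gland stem or progenitor cells and name no transgene. The organoids grew in Matrigel with EGF, FGF2, insulin, dexamethasone and the ROCK inhibitor Y-27632, so every group carried these additions. The sources used here state neither the radiation dose nor the age of the animals. The labels do not tie the cultures of different days to each other, so time after irradiation, age of the animal and round of culture cannot be told apart. Nor do they say whether replicates were separate animals, so the p-values measure how far these libraries differ, in part perhaps for technical reasons.

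The ducts of a salivary gland hold basal cells, which carry keratins 5 and 14, and luminal cells, which carry keratins 8 and 18, while acinar cells secrete the saliva. Ionizing radiation damages the gland and lowers saliva output, and cells able to form organoids are used as a readout of what capacity to regrow remains. The title of the study names Bmp4, a secreted ligand whose receptors phosphorylate SMAD1 and SMAD5. The Id genes are standard targets of that signal. An organoid in Matrigel has lost the stroma of the gland, and its transcripts are those of the epithelial cells that grew out and of any carried-over cell.

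The libraries were of epithelial cells by their markers. Summed over 8 epithelial markers, the 6 libraries held 3916 to 7977 CPM, the counts per 1000000 counts of a library, and none of the 8 was at 0. The 8 fibroblast markers summed to at most 1.15 CPM, with Col1a2, Col3a1, Dpt and Pdgfrb at 0 in all 6. The 9 immune markers summed to 1.45 to 5.97 CPM at day 14 and 0.406 to 2.98 CPM at day 90, with Cd3e, Cd79a and Nkg7 at 0. Each library had between 1694307 and 3068029 counts on genes, and 1 count was worth 0.298 to 0.664 CPM. The ribosomal repeat gene Gm42418 took 26.5%, 27.4% and 17.2% of the counts at day 14 and 13.5%, 24.3% and 23.02% at day 90, replicates 1 to 3. A pair of libraries stood apart from their groups. Across genes, day 14 replicates 1 and 2 had a Pearson r of 0.964 with each other, and replicate 3 had 0.924 and 0.902 with them. Day 90 replicates 2 and 3 had 0.970 with each other, and replicate 1 had 0.920 and 0.946 with them.

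Between day 14 and day 90, 46 of 10563 tested genes (0.435%) changed, 21 higher at day 90 (0.199%) and 25 lower (0.237%), at an adjusted p under 0.05 in the quasi-likelihood test of edgeR. At an unadjusted p under 0.05 there were 1429. All 21 genes that rose code for proteins, among them Fn1, Timp3, Nox4, Gpx3, Serpinb9 and Cldn2. Of the 25 that fell, 13 code for proteins, among them S100a8, S100a9, Robo2 and mt-Co1. Another 10 were small structured RNAs, mostly copies of the spliceosomal RNA U6. In 44 of the 46 the libraries of the days did not overlap, against a background of 7.43% of tested genes that lay wholly higher at day 90 and 7.09% that lay wholly lower. Klrb1f and Fgd3 were the other two.

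How many genes were called rested on single libraries. Without day 90 replicate 3 the count was 0 (1028 at an unadjusted p under 0.05), without day 90 replicate 2 it was 7, and without day 90 replicate 1 it was 372, which held 44 of the 46. Without day 14 replicate 1, 2 or 3 it was 23, 52 or 19. Leaving out both libraries that stood apart gave 277 genes, 116 higher and 161 lower, which held 36 of the 46. DESeq2 called 168, 87 higher and 81 lower, and held 45 of the 46. Scaling by total counts gave 72 higher and 22 lower. Fitted on these 6 libraries alone, edgeR called 0 genes (827 at an unadjusted p under 0.05). Of the 46 genes, 39 kept the call in at most 3 of the 6 fits that left out 1 library, and the most for any gene was 5. None of the 46 changed sign in any of these fits that gave it a value.

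Matrix genes were among those that rose. Fn1 encodes fibronectin, a glycoprotein of the extracellular matrix to which integrins bind. It stood at 368, 244 and 98.5 CPM at day 14 and at 625, 1681 and 2162 CPM at day 90. Every day 90 library was above every day 14 library, with replicate 1 the lowest of the 3 and closest to day 14. Fn1 rose by 2.66 ± 0.48 (log2 fold change ± SE, n = 3 per day, edgeR adjusted p = 0.0132). Its adjusted p was 0.0693 without day 14 replicate 3, 0.0567 without day 90 replicate 2 and 0.126 without day 90 replicate 3. Timp3, a matrix-bound inhibitor of metalloproteinases, was among the most abundant of the called genes. It went from 1825, 1849 and 1022 CPM to 2315, 4602 and 2753 CPM, again without overlap, and rose by 1.04 ± 0.23 (edgeR adjusted p = 0.0480). Pomgnt2, which adds a sugar to dystroglycan on the way to its laminin-binding form and is not on the matrix list, rose by 1.62 from a low level (edgeR adjusted p = 0.0480). Its call was kept in 1 of the 6 fits that left out 1 library and was lost in DESeq2.

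Of the 33 tested members of the list of matrix glycoproteins and collagens, these 2, Fn1 and Timp3, were called higher and 0 lower (0.199% and 0.237% of all tested genes were), with a median log2 fold change of 0.18 beside -0.01 over all tested genes. Lox, the enzyme that cross-links collagen and elastin, stood at 68.2, 59.7 and 44.9 CPM and then 168, 145 and 232 CPM, without overlap, and missed the threshold (log2 fold change 1.67, edgeR adjusted p = 0.0678). Thbs1, thrombospondin 1, overlapped between days (1.10, edgeR adjusted p = 0.0744). The basement membrane collagen chains Col4a1 and Col4a2 had log2 values of -0.20 and -0.29, and 14 of the 33 members had values below 0.

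**Figure D1:**
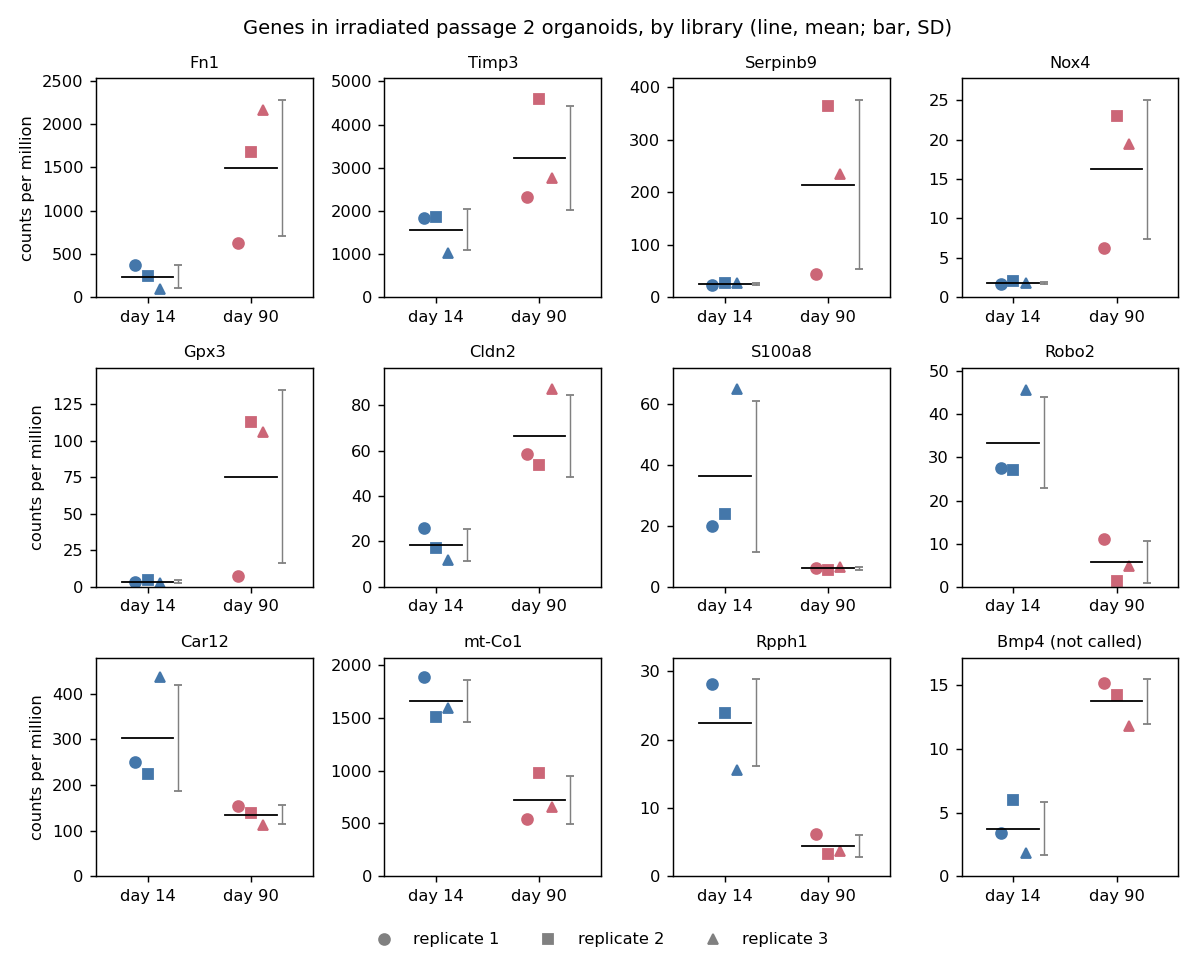
CPM of 12 genes in the 3 day 14 (blue) and 3 day 90 (red) libraries of irradiated passage 2 organoids; horizontal lines are means and bars at the side are SDs (n = 3). Fn1, Serpinb9, Nox4 and Gpx3 are carried by day 90 replicates 2 and 3, with replicate 1 nearer to day 14, while Bmp4, which was not called, stands at 11.8 to 15.2 CPM in all 3 day 90 libraries.

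Bmp4 itself was low and missed the threshold in the edgeR fit of all libraries, though it passed in some other fits. It was counted at 3.44, 5.97 and 1.81 CPM at day 14 and at 15.2, 14.2 and 11.8 CPM at day 90, from 20 and 114 counts in all. The days did not overlap, and the 3 day 90 libraries were close to each other. The log2 fold change was 1.97 ± 0.46 (n = 3 per day, edgeR adjusted p = 0.0552). It passed without day 14 replicate 2 (adjusted p = 0.0386) or day 90 replicate 1 (0.0413) and not without any other single library (0.128 to 0.318). It also passed with scaling by total counts (0.0348), in DESeq2 (0.0116), with no filter (0.000682) and with the Gm42418 share as a covariate (0.0488). The fit with no filter called 275 genes higher and 285 lower, and the log2 value of Bmp4 there was 2.00, hardly changed. Of the ligands, receptors and antagonists of BMP signalling, 19 were tested and 0 were called (median 0.17). Bmp7, another ligand, had a value of -0.19, the type I receptor Bmpr1a 0.10, and the secreted antagonists Nbl1 and Sostdc1 1.17 and -2.03.

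The targets of the BMP signal lay mostly above 0 and none was called in that fit. Id1, an inhibitor of basic helix-loop-helix transcription factors, stood at 61.4, 65.7 and 11.6 CPM and then at 138, 246 and 129 CPM. Day 14 replicate 3 was the lowest, and the days did not overlap (log2 fold change 1.93 ± 0.47, edgeR adjusted p = 0.0619). Id1 passed without day 90 replicate 1 (0.0223), with scaling by total counts (0.0305), in DESeq2 (0.0105), with no filter (5.46e-16) and with the Gm42418 share as a covariate (0.0216). Id3 had 118, 125 and 39.5 CPM and then 179, 358 and 253 CPM, also without overlap (1.50 ± 0.51, edgeR adjusted p = 0.180), and passed only with no filter (3.01e-11). With no filter the log2 values of Id1 and Id3 were 1.97 and 1.54, hardly changed, so the low p-values did not come from larger rises. Id2 overlapped between days (0.56, edgeR adjusted p = 0.296). The inhibitory SMADs, which feed back on the receptors, had values of 0.84 for Smad6 and 0.89 for Smad7 (edgeR adjusted p = 0.278 and 0.0761). The receptor SMADs Smad1 and Smad5 were at 0.03 and 0.04. Over the 12 tested members of this list the median was 0.11, and 4 members lay wholly higher at day 90, beside 7.43% of all tested genes.

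Nox4, Gpx3 and Scara3 rose. Nox4 encodes an NADPH oxidase that makes hydrogen peroxide. It stood at 1.72, 1.99 and 1.81 CPM at day 14 and at 6.25, 22.98 and 19.5 CPM at day 90, and rose by 3.09 ± 0.55 (edgeR adjusted p = 0.0132). The day 14 level of Nox4 was near that of 3 counts, so the size of its rise is uncertain. Gpx3 encodes a secreted glutathione peroxidase, which removes peroxides. It had 3.44, 4.65 and 2.53 CPM and then 7.14, 113 and 106 CPM. Day 90 replicates 2 and 3 carried nearly all of that rise, of 4.44 ± 0.88 (edgeR adjusted p = 0.0255), and the call held only without day 90 replicate 1 (0.000532) among the fits that left out 1 library (0.0501 to 0.154 in the others). Gpx3 was the single called member among 34 tested genes of the NRF2 and glutathione list (median 0.10, beside 0.199% of all tested genes called higher). Scara3, a scavenger receptor, rose by 3.03 ± 0.65 (edgeR adjusted p = 0.0419).

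Serpinb9 encodes an inhibitor of granzyme B, the protease of cytotoxic lymphocytes. It was even at day 14, at 23.5, 27.2 and 26.1 CPM, and stood at 44.3, 364 and 236 CPM at day 90. It rose by 3.06 ± 0.52 (edgeR adjusted p = 0.0132) and passed in 4 of the 6 fits that each left out 1 library, not without day 90 replicate 2 or 3 (0.0678 and 0.0769). Il18r1, a chain of the interleukin 18 receptor, went from 20.6, 21.9 and 8.69 CPM to 47.6, 42.6 and 50.3 CPM and rose by 1.51. Gdf15, a secreted member of the TGF-beta superfamily that cells make under stress, went from 33.8, 41.1 and 13.8 CPM to 70.5, 76.5 and 98.1 CPM and rose by 1.51 ± 0.33 (edgeR adjusted p = 0.0457). It was the only called member of the p53 target list (30 tested, median -0.16) and of the list of senescence and secreted factors (21 tested, median -0.35), beside 0.199% of all tested genes called higher. Cdkn1a, the p53 target that halts the cell cycle, overlapped between days at 224 to 472 and 334 to 519 CPM (0.10, edgeR adjusted p = 0.913).

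Cldn2, a claudin that forms a cation pore in tight junctions, stood at 25.8, 17.3 and 11.9 CPM and then 58.3, 53.9 and 87.2 CPM. It rose by 1.88 ± 0.34 (edgeR adjusted p = 0.0132), and here day 90 replicate 1 was no nearer to day 14 than replicate 2. Its adjusted p was 0.107 without day 14 replicate 3 and 0.126 without day 90 replicate 3. The monocarboxylate transporter genes Slc16a7 and Slc16a11 both rose. Slc16a7 had 2 counts in all at day 14 and 65 at day 90, a ratio of 23.8 with a 95% exact counting interval of 6.32 to 200, which covers counting error only. Slc16a11 went from 0.573, 1.33 and 1.45 CPM to 4.46, 8.36 and 8.92 CPM. Camk2n1, an inhibitor of the calcium-dependent kinase CaMKII, rose by 2.02 ± 0.35, and Pea15a, a phosphoprotein that binds ERK, by 1.35 ± 0.24 (edgeR adjusted p = 0.0132 for each). Samd4, an RNA-binding repressor of translation, rose by 1.68. The others that rose were Mchr1, Klrb1f, Fgd3, Lpcat1, Wwc2 and Rhobtb3, with log2 fold changes between 0.80 and 3.23.

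Among the protein-coding genes that fell, the S100a8 and S100a9 pair had the largest changes of those with a mean of at least 5 CPM. Their products join as calprotectin, a calcium-binding protein of neutrophils and of inflamed or stratified epithelium. S100a8 stood at 20.1, 23.9 and 64.8 CPM at day 14 and at 6.25, 5.43 and 6.49 CPM at day 90. The day 90 libraries were nearly equal, and day 14 replicate 3 was the highest. S100a8 fell by 2.61 on the log2 scale (SE 0.57, edgeR adjusted p = 0.0453). S100a9 went from 8.602, 3.98 and 33.7 CPM to 0.893, 0.418 and 2.84 CPM and fell by 3.56 (SE 0.81, edgeR adjusted p = 0.0493). Without day 14 replicate 3 their adjusted p-values were 0.338 and 0.418. The immune markers summed to 5.73, 5.97 and 1.45 CPM at day 14 and to 2.98, 2.09 and 0.406 CPM at day 90. These sums overlapped between days and rested mainly on Lyz2 and Cd68, with 12 and 22 counts over the 6 libraries. The part of immune cells in this result was not tested.

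S100a8 and S100a9 were the 2 called members of the list of squamous differentiation genes, of 32 tested, beside 0.237% of all tested genes called lower, and neither is specific to that program. The median of the list was -1.17, beside -0.01 over all tested genes, 28 of the 32 values were below 0, and 14 members lay wholly lower at day 90 (43.8%, against 7.09% of all tested genes). This list, like the others, was chosen with earlier results of these data known, so such shares describe the lists and are no test. Krt6b, a keratin of stressed and stratified epithelium, had 15.5, 12.6 and 94.9 CPM at day 14 and 4.17, 0 and 1.22 CPM at day 90 (edgeR adjusted p = 0.181). Krt16, its usual partner in such epithelium, had 27.5, 31.9 and 78.2 CPM and then 5.06, 3.34 and 5.68 CPM (edgeR adjusted p = 0.150). Serpinb3a had 72 counts at day 14 and 0 at day 90, which is at least 32.8-fold lower with the group floored at 3 counts. In Krt6b, Krt16, S100a8 and S100a9, day 14 replicate 3 was the highest library. S100a14, another S100 protein of stratified epithelium, missed the threshold (-1.33, edgeR adjusted p = 0.0525).

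In the edgeR fit of all libraries no member of the basal or luminal duct lists was called. With 1 library left out, at most 4 basal and 6 luminal members were called. Krt5 stood at 1970, 2185 and 1377 CPM at day 14 and at 1836, 392 and 483 CPM at day 90, and Krt14 at 3048, 3595 and 2985 CPM and then 2832, 868 and 1396 CPM. Day 90 replicate 1 stood close to the day 14 level of both keratins, and replicates 2 and 3 lay below every other library. The log2 fold changes were -1.03 (edgeR adjusted p = 0.288) and -0.92 (0.219), and with day 90 replicate 1 left out they were -2.07 (0.00425) and -1.50 (0.0119). Without any other single library neither keratin passed, with an edgeR adjusted p of 0.377 to 0.669 for Krt5 and 0.278 to 0.523 for Krt14. Krt15, also a basal keratin, had 82.6, 77.0 and 136 CPM and then 41.4, 0.418 and 1.22 CPM (-2.68, edgeR adjusted p = 0.117). The basal list had a median of -0.53 over 21 tested members, 19 of them below 0, and 7 lay wholly lower at day 90 (33.3%, against 7.09% of all tested genes).

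The list of luminal duct cells and ionocytes had 22 tested genes and a median of 0.36. At day 90, 4 members lay wholly higher (18.2%, against 7.43% of all tested genes) and 1 wholly lower (4.55%, against 7.09%). As mean log2(CPM + 1), the list stood at 4.99, 4.96 and 4.82 at day 14 and at 4.70, 5.37 and 5.50 at day 90. Day 90 replicate 1 was thus the lowest library, and replicates 2 and 3 were the highest. Krt8 overlapped between days, at 75.0 to 121 CPM and 113 to 167 CPM (0.39, edgeR adjusted p = 0.399). Krt18 stood at 382, 363 and 196 CPM and then 382, 546 and 676 CPM (0.77, edgeR adjusted p = 0.105), with day 90 replicate 1 just above day 14 replicate 1. Krt18 passed in 6 of 17 other fits, and 1 of these was the fit without day 90 replicate 1. The others were scaling by total counts, DESeq2, no filter, the Gm42418 covariate and both libraries that stood apart left out. Krt19 was low throughout, at 1.45 to 5.31 CPM. Scnn1b, the beta subunit of the epithelial sodium channel, had 0 counts at day 14 and 31 at day 90, at least 7.56-fold higher with the day 14 group floored at 3 counts (edgeR adjusted p = 0.0619).

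Of 24 listed acinar and secretory genes, 10 passed the filter on low counts. The water channel Aqp5, which also marks duct progenitors, had 45.9, 39.8 and 11.9 CPM at day 14 and 34.5, 25.5 and 31.2 CPM at day 90, and overlapped (-0.05, edgeR adjusted p = 0.980), with a sign that flipped when counts were scaled by library totals. Pip, a secreted salivary protein, had 493, 358 and 1973 CPM and then 232, 123 and 132 CPM, lower in all 3 day 90 libraries without passing the test (-2.54, edgeR adjusted p = 0.0818). The secreted carbonic anhydrase Car6 had 19 counts at day 14 and 0 at day 90, at least 8.66-fold lower. Slc12a2, also on the acinar list, lay wholly higher at day 90, at 573, 573 and 245 CPM and then 632, 835 and 651 CPM. Over 10 tested members of the acinar list 0 were called, 9 values were below 0 and the median was -2.67. With the 4 members that had 0 counts at day 90, and 4 to 19 at day 14, set to their bounds the median was -1.03.

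**Figure D2:**
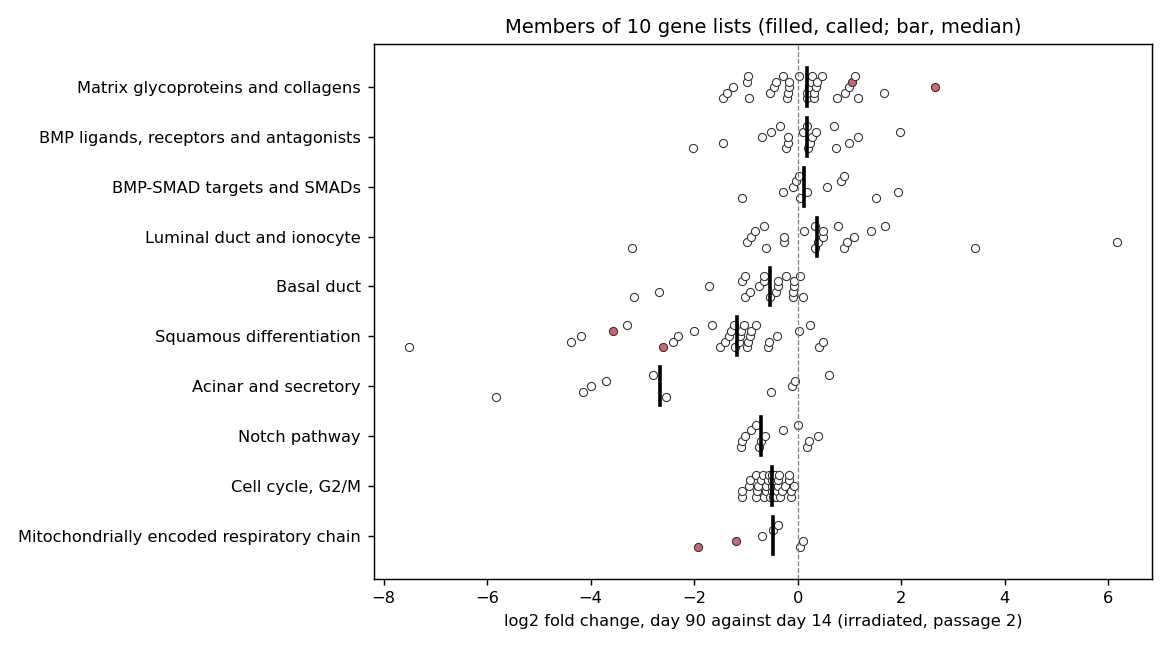
Log2 fold change between day 90 and day 14 of each tested member of 10 gene lists; filled points were called, vertical bars are list medians, and genes with 0 counts at one day (Serpinb3a, Scnn1b, Car6, Spdef, Dcpp3 and Dcpp1) are drawn at fitted values that depend on the prior count. The squamous and acinar lists lie mostly left of 0 (medians -1.17 and -2.67), and called members are few in every list. With the 4 acinar members that had 0 counts at day 90 set to their bounds, the acinar median is -1.03.

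Robo2, Arhgap27 and Skint3 also fell. Robo2, a receptor for Slit guidance proteins, stood at 27.5, 27.2 and 45.6 CPM at day 14 and at 11.01, 1.25 and 4.87 CPM at day 90. The days did not overlap, and Robo2 fell by 2.48 (SE 0.45, edgeR adjusted p = 0.0132). Its adjusted p was 0.0893 without day 14 replicate 3, 0.0720 without day 90 replicate 2 and 0.126 without day 90 replicate 3. Arhgap27, a GTPase-activating protein, was even within each day, at 10.9, 13.3 and 13.8 CPM and then 4.76, 5.01 and 3.65 CPM, and fell by 1.49 (SE 0.27, edgeR adjusted p = 0.0132). Skint3, of a family expressed in skin and thymus epithelium, had 25 counts at day 14 and 1 at day 90, a ratio of 34.2 with an exact counting interval of 5.59 to 1403. None of 13 tested Notch pathway genes was called, with a median of -0.71. The ligand Jag1 had 103, 102 and 160 CPM and then 76.2, 53.5 and 64.9 CPM (-0.91, edgeR adjusted p = 0.0627). The receptor Notch1 had 245, 259 and 199 CPM and then 175, 116 and 108 CPM (-0.81, edgeR adjusted p = 0.0696). Both lay wholly lower at day 90. In all 3 of the 13 did (23.1%, against 7.09% of all tested genes), and 3 of the 13 had values above 0.

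Car12, a carbonic anhydrase on the cell surface, stood at 250, 223 and 435 CPM at day 14 and at 154, 138 and 113 CPM at day 90. It fell by 1.17 (SE 0.25, edgeR adjusted p = 0.0398) and was the 1 called member of 32 tested genes of glycolysis and hypoxia, beside 0.237% of all tested genes called lower. Without day 14 replicate 3 its log2 value was -0.80 (0.258). A pair of mitochondrially encoded genes also fell. mt-Co1, the first subunit of cytochrome c oxidase, had 1880, 1502 and 1591 CPM and then 541, 978 and 654 CPM, and fell by 1.20 (SE 0.23, edgeR adjusted p = 0.0255). mt-Nd6, a complex I subunit and the only protein encoded on the light strand, had 59.1, 108 and 23.5 CPM and then 19.3, 17.5 and 11.4 CPM, and fell by 1.94 (edgeR adjusted p = 0.0451). mt-Nd6 lies opposite the strand of mt-Nd5, and without a stated strand setting its reads are uncertain. These were the 2 called of 7 tested mitochondrial protein genes (0.237% of all tested genes were called lower), whose median was -0.48. The abundant mt-Nd4 and mt-Nd2 had values of 0.04 and 0.10. Ndufb2, a nuclear gene of complex I named here because it was called, fell by 0.78.

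Ptbp2, Tra2b and Taf1d fell by smaller amounts. Ptbp2, a repressor of splicing, had 24.7, 34.5 and 29.3 CPM and then 15.8, 17.5 and 11.8 CPM, and fell by 0.97 (SE 0.21, edgeR adjusted p = 0.0451). Tra2b, a splicing activator, was even at day 14 at 173, 167 and 172 CPM, had 123, 86.5 and 93.3 CPM at day 90, and fell by 0.75 (edgeR adjusted p = 0.0457). Taf1d, a factor of RNA polymerase I, had 107, 77.0 and 175 CPM and then 67.6, 72.3 and 62.9 CPM, and fell by 0.84 (edgeR adjusted p = 0.0491). These 3 were grouped here after their values were seen.

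The lowest adjusted p of the comparison belonged to Gm23924, a copy of the spliceosomal RNA U6, and 6 other U6-like genes also fell. U6 is transcribed by RNA polymerase III, ends in a run of uridines, and pairs with the intron in the active spliceosome. Gm22798, another copy, was tested and not called (fitted log2 value -2.25, edgeR adjusted p = 0.173). Some copies of U6 are close enough in sequence that reads could be split between them, so the value of any one is uncertain.

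Gm23924 had 96.3, 89.6 and 14.8 CPM at day 14 and 4.17, 4.60 and 2.03 CPM at day 90. Day 14 replicate 3 was far below the other two and still above day 90. Gm23924 fell by 4.16 (SE 0.57, edgeR adjusted p = 0.00277), with an adjusted p of 0.0691 without day 90 replicate 3 and at most 0.0284 without any other library. Of 1383 snRNA transcripts, 561 (40.56%) were 90 to 120 bases long and held ACAGAGA on the transcript strand, and these were taken as U6-like. Only 14 of the 561 passed the filter on low counts, and since they passed mostly through day 14, where they were high, their direction had little room to differ. Summed over all 561, U6-like counts came to 442, 449 and 102 CPM at day 14 and to 63.4, 60.6 and 52.7 CPM at day 90, without overlap. This sum was formed after the single genes had been seen, and no test was made of it.

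U6-like RNA was also lower at day 90 in the other groups. In sham passage 2 organoids the sum was 313, 259 and 431 CPM at day 14 and 60.5, 94.2 and 86.4 CPM at day 90. In irradiated passage 1 organoids it was 94.3, 167 and 80.6 CPM and then 41.8, 37.7 and 44.5 CPM. In each of these pairs of groups day 90 lay wholly below day 14. The libraries were primed at poly(A) tails, and reads on no gene took 22.1%, 18.9% and 15.4% of the reads at day 14 and 12.8%, 15.9% and 15.95% at day 90. The part of RNA quality or library preparation in this result was not tested.

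**Figure D3:**
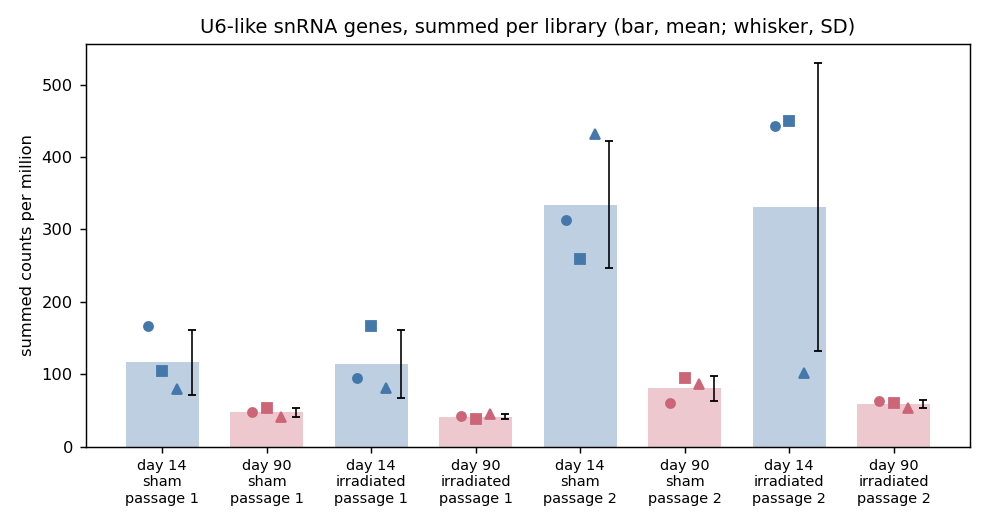
CPM summed over 561 U6-like snRNA genes in each of the 24 libraries, by day, treatment and passage; bars are means and whiskers SDs (n = 3). Day 90 (red) lies below day 14 (blue) in each of the 4 pairs of groups, with means of 331 and 58.9 CPM in irradiated passage 2.

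Other structured RNAs fell with them. Rpph1, the RNA of ribonuclease P, which trims the ends of transfer RNAs, had 28.1, 23.9 and 15.6 CPM at day 14 and 6.25, 3.34 and 3.65 CPM at day 90, and fell by 2.29 (SE 0.35, edgeR adjusted p = 0.00689). It passed in 5 of the 6 fits that left out 1 library (0.0769 without day 90 replicate 3). Scarna2, which guides modification of spliceosomal RNA, had 12.04, 15.9 and 4.71 CPM and then 2.08, 1.25 and 1.22 CPM, and fell by 2.71 (edgeR adjusted p = 0.0400). The snoRNA Gm23262 fell by 3.19. Of 51 tested genes with a small structured biotype, 10 were called lower and 0 higher, beside 0.237% and 0.199% of all tested genes, again a group formed after the values were seen. Of these 10, 7 were the U6-like genes above, whose direction had little room to differ, so this count adds little to theirs. Gm26917, treated here with Gm42418 as a ribosomal repeat gene, fell by 1.07 and is uncertain for that reason. The uncharacterised genes 2310057J18Rik and Gm17494 fell too, the second from 26 counts to 2.

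Cell cycle and interferon genes varied more within a day than between days. Mki67, the standard marker of dividing cells, had 125, 120 and 35.5 CPM at day 14 and 146, 16.7 and 47.0 CPM at day 90 (-0.38, edgeR adjusted p = 0.837). None of 38 tested genes of G2 and mitosis was called, with a median of -0.50 and all 38 values below 0. As mean log2(CPM + 1) over these 38 genes, day 14 stood at 5.55, 5.46 and 4.85 and day 90 at 5.60, 3.52 and 4.44, so day 90 replicate 1 was the highest of the 6 and replicate 2 the lowest. None of 48 tested type I interferon genes was called, with a median of -0.16. Their mean was 2.76, 3.12 and 5.80 at day 14 and 3.77, 4.99 and 4.78 at day 90, so day 14 replicate 3 was the highest and the other two of that day the lowest. Isg15, a ubiquitin-like protein induced by interferon, went with them at 8.602, 21.2 and 140 CPM and then 35.1, 112 and 77.5 CPM. The 18 tested genes of MHC class I and the immunoproteasome had their highest mean in the same library (5.80). These shifts moved with the libraries that stood apart, and their part in the called genes was not tested.

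**Figure D4:**
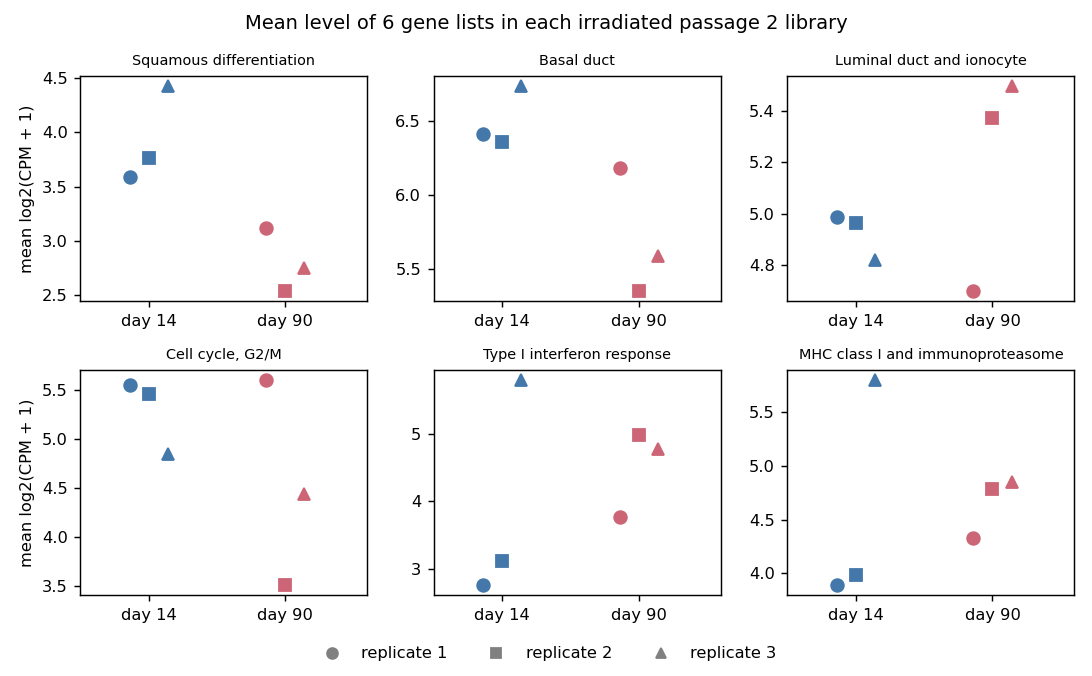
Mean log2(CPM + 1) of the tested members of 6 gene lists in each irradiated passage 2 library, day 14 in blue and day 90 in red, with the symbol giving the replicate; the vertical axes differ and do not start at 0. Squamous and basal duct genes are lower in all 3 day 90 libraries, whereas interferon genes range from 2.76 to 5.80 within day 14 and G2 and mitosis genes from 3.52 to 5.60 within day 90.

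Of 34 pathway and cell type lists, 7 had a called member and 27 had none. The TGF-beta list of ligands, receptors and targets had a median log2 fold change of 0.05 over 27 tested genes, and the Wnt list one of -0.21 over 22. Targets of YAP, a coactivator tied to regrowth of epithelium, had a median of -0.02 over 32 genes, with 16 above and 16 below 0. Genes of the unfolded protein and integrated stress response stood at 0.13 over 34, and genes of double-strand break repair at -0.10 over 23.

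The same days were compared in sham organoids of passage 2, where 45 genes were called (0.426%). Of the 46 genes called in irradiated organoids, 10 were also called there, which is 21.7% of the irradiated and 22.2% of the sham calls. They were Gdf15 and Il18r1, both higher, and Rpph1, mt-Co1, Gm23262, Gm17494 and 4 U6-like genes, all lower. Of the 21 genes that rose in irradiated organoids, 18 had the same sign in sham, with a median log2 value of 0.88 there and 2.02 in irradiated organoids. Of the 25 that fell, 21 had the same sign, with medians of -1.21 and -2.71. Fn1 was among the exceptions, at 137, 87.4 and 57.3 CPM at day 14 and 37.1, 121 and 89.4 CPM at day 90 in sham (-0.18, edgeR adjusted p = 0.908). S100a8 was another, with a log2 value of 1.01 in sham. The 25 genes that fell included the 7 U6-like genes, whose direction had little room to differ. The share of all tested genes with the same sign in both treatments was not computed.

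A difference of the day effect between treatments was tested gene by gene, and 1 gene passed (0.00947%). That gene was Ccl8, a chemokine that attracts monocytes. In irradiated organoids it had 4.01, 9.29 and 3.26 CPM at day 14 and 2.08, 1.67 and 1.62 CPM at day 90 (-1.50, edgeR adjusted p = 0.277), and in sham organoids 2.27, 0.591 and 0.431 CPM and then 12.3, 21.9 and 28.2 CPM (4.23, edgeR adjusted p = 0.00270). The interaction was -5.73 ± 0.90 (log2 ± SE, n = 3 per group, edgeR adjusted p = 0.0229). It was lost without day 14 replicate 2 or day 90 replicate 2 or 3 of the irradiated group, and without replicate 2 or 3 of either sham group (adjusted p = 0.0719 to 0.205). For the genes called between days it did not pass the threshold. Fn1 had an interaction of 2.84 (edgeR adjusted p = 0.396), which passed without day 90 replicate 1 of the irradiated group (3.20, 0.0467) and with no filter (1.91e-19). S100a8 had an interaction of -3.62 (edgeR adjusted p = 0.338), which passed in DESeq2 (0.0162) and with no filter (3.71e-19). With no filter these 2 interactions were 2.84 and -3.62, hardly changed, and 43 genes passed higher and 86 lower. Serpinb9 had 2.83 (0.523), Gm23924 0.43 (1.00) and Bmp4 1.38 (0.971).

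**Figure D5:**
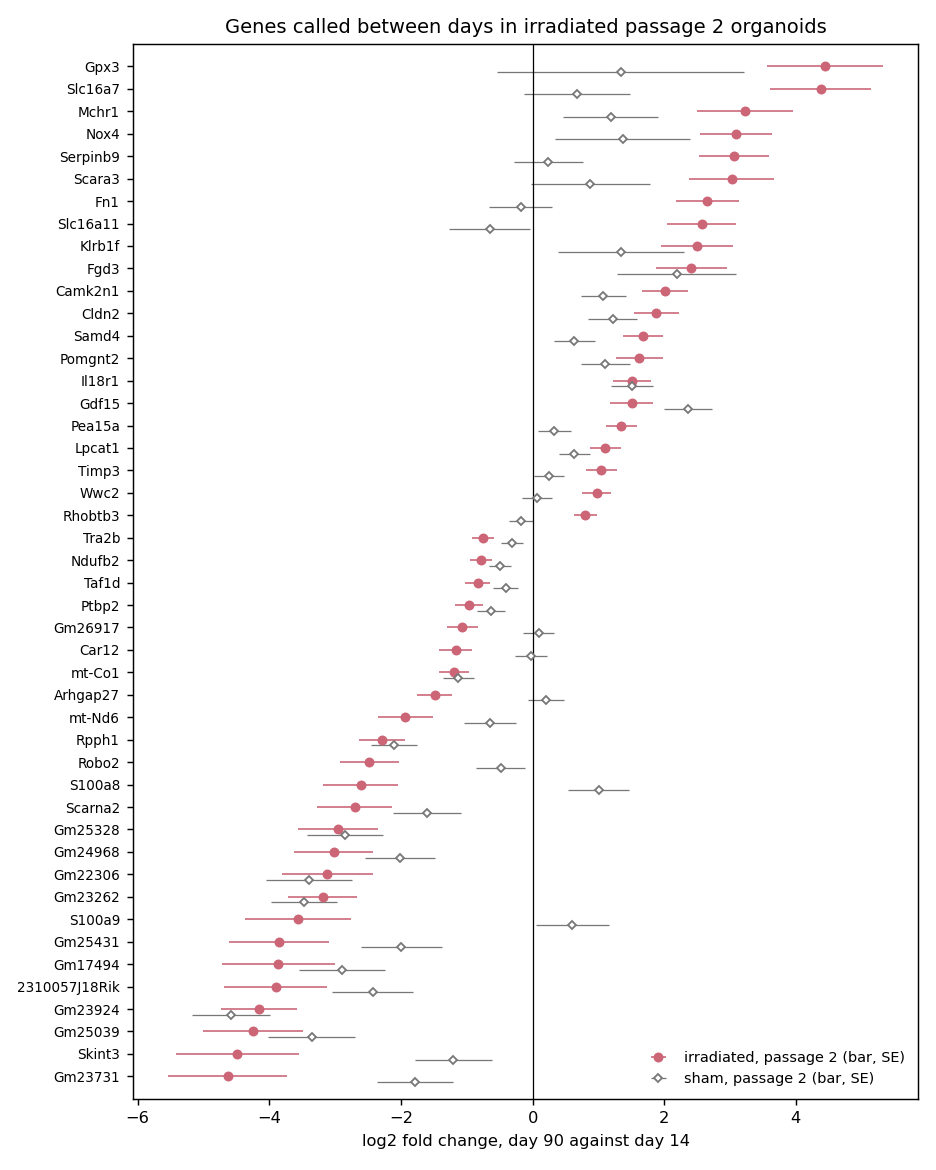
Log2 fold change between day 90 and day 14 of the 46 genes called in irradiated passage 2 organoids (filled) and of the same genes in sham passage 2 organoids (open), with SEs; values of Slc16a7, Skint3, Gm17494, Gm23731, Gm25039 and Gm25431, which had 1 to 3 counts at one day, depend on the prior count. Rpph1 (-2.29 and -2.11), mt-Co1 (-1.20 and -1.13) and Il18r1 (1.51 in both) lie near each other in both treatments, whereas Fn1 (2.66 and -0.18) and S100a8 (-2.61 and 1.01) lie on opposite sides of 0.

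In irradiated organoids of passage 1 the same days gave 18 called genes (0.170%), all lower at day 90, and 2 of them, S100a8 and 2310057J18Rik, were among the 46. These are 4.35% of the passage 2 and 11.1% of the passage 1 calls. Of the 21 genes that rose in passage 2, 19 had the same sign in passage 1 (median 0.51), and of the 25 that fell all 25 did (median -1.81). Those 25 included the 7 U6-like genes, whose direction had little room to differ. The share of all tested genes with the same sign in both passages was not computed. S100a8 had 35.6, 74.6 and 15.9 CPM at day 14 and 1.03, 7.93 and 1.39 CPM at day 90 of passage 1. Fn1 was already high there at day 14, at 1996, 1260 and 1331 CPM, and had 1377, 1960 and 3215 CPM at day 90. Its lowest levels in irradiated organoids were those of day 14, passage 2. A difference of the day effect between passages was called for 0 genes by edgeR (0%, 721 at an unadjusted p under 0.05) and for 1 by DESeq2. For Fn1 that difference was 2.14 (edgeR adjusted p = 0.642). Passage 2 was grown from passage 1, so the groups of both passages may share starting cultures. The fit treated all libraries as independent.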

How the data were processed

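For each library the authors deposited read counts of genes, with Ensembl identifiers and no normalization. Libraries were made with a kit that primes at poly(A) tails and reads 3′ ends, per the labels' protocols, so a count does not grow with gene length. The submitters' processing notes name bcl2fastq and build GRCm39; aligner, counter, annotation and strand setting were not given in the sources used here. Lines that name no gene (5 per file) were left out. Symbols were taken by identifier from an older annotation (47224 of 47643 matched).

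Counts of all 24 libraries were fitted together with edgeR 4.0.16 in R 4.3.3 (TMM factors, filterByExpr, 1 mean per group, 10563 genes), two-sided, with Benjamini-Hochberg adjustment and a threshold of 0.05. The SE is the absolute log2 fold change over the square root of F. CPM used the TMM factors. Interactions tested whether the day effect differed from sham passage 2 or irradiated passage 1. The test was checked on simulated data with independent libraries, none of which stood apart. That check therefore does not cover the dependence of the calls on single libraries. Replicate pairs differed by more than sampling noise (a chi-square of 2.73 to 26.7 per degree of freedom), and no pair was merged.

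The members and the 41 gene lists were chosen with earlier results of these data known. Named genes were 12 fixed ones, up to 10 called genes per direction with the largest change, no overlap and a mean of 5 CPM or more, up to 4 called members of a list with 2 or more, and genes called for an interaction; others named were chosen after their values were seen. Alternatives were other scalings, filters, DESeq2 1.42.0, a replicate block, a Gm42418 covariate and left-out libraries. No coordinates are given, since the reference build differs. Sequences of the small RNAs are not reported here.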

Additional observations from a re-analysis of the deposited data

Results flagged for a closer look

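Ccl8 stood out because its day effect differed between irradiated and sham organoids of passage 2, with an interaction of -5.73 on the log2 scale (edgeR adjusted p = 0.0229, n = 3 per group). Irradiated organoids were lower at day 90 in all 3 libraries and sham organoids higher in all 3. The day 90 level was 1.79 ± 0.25 CPM (SD, n = 3) in irradiated and 20.8 ± 8.001 CPM in sham organoids, and the irradiated groups rested on 30 counts at day 14 and 15 at day 90. Groups of 3 libraries were too small for the screen on single outlying libraries.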

How the results depend on the processing

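The count of 46 genes between days was 94 with scaling by total counts, 168 with DESeq2, 560 with no filter, 0 with only the groups compared (827 at an unadjusted p under 0.05), 97 with the Gm42418 share as a covariate and 17 without day 14 replicate 3 of the irradiated and replicate 1 of the sham group. It was 277 without day 14 replicate 3 and day 90 replicate 1, an alternative chosen after seeing the data, and 0 to 372 with each single library left out. The treatment interaction (1 gene) gave 2, 129, 0 and 0 genes with DESeq2, no filter, only the groups compared (467 at an unadjusted p under 0.05) and the covariate (362), 2 and 13 without those pairs of libraries, and 0 to 10 with single libraries left out. The passage interaction (0 genes) gave 1 with DESeq2, 128 with no filter and 0 to 1 with single libraries left out. The fit of only the compared groups had fewer samples; for the others the cause was not tested. Scaling by total counts moved the median of all genes to -0.15 in the treatment interaction. The replicate numbers did not pair the samples: same-numbered libraries of the days had correlations of 0.134, -0.292 and 0.0799 between their deviations, and not every sample correlated best with its own number. With the replicate block the counts were 50, 1 and 0.

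Genes that were not called changed sign in some fits. Aqp5 was 0.0884 with total counts, 5e-04 with the replicate block, 0.0171 with the covariate and -0.48 to 0.32 with single libraries left out. Mki67 ranged from -1.52 to 0.0804 and Cdkn1a from -0.15 to 0.31 with single libraries left out, and Cdkn1a was -0.15 and -0.39 without the 2 pairs of libraries. Of 1250 values of single genes, 927 kept their direction and side of the threshold, 279 lost the call, 33 gained one and 11 changed sign; none of the 46 genes kept its call in every fit. At these depths a gene with 3 counts stood at 0.893 to 1.99 CPM in the 6 libraries, and changes between levels that low were not detectable. Nox4 and Slc16a11 at day 14 and S100a9 at day 90 lay near that level, so the size of their changes is uncertain.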
